A study of Mus musculus with 5 samples.

Results

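Interferon-stimulated genes were followed as a set of 37 genes named by symbol, and all 37 were found among the 31053 genes of the count tables. Single-cell RNA of BALB/c mice aged 4 to 8 weeks was counted in 5 libraries. Whole BM came from naive mice and from mice on day 2 (D2 CTX BM) and day 7 (D7 CTX BM) after 1 intraperitoneal dose of cyclophosphamide (CTX, 150 mg/kg), with the cells of 3 mice pooled in each library. CD11b+Ly6Chi monocytes were sorted from naive and CTX-treated mice in the other 2 libraries. The labels give no day for the sorted CTX cells, and the methods of the study place them on the later of the BM days. Red cells were lysed and dead cells were removed from whole BM before capture. Each condition was 1 pooled library, so no difference between conditions could be tested against the spread between mice, and the intervals given are 95% intervals of the counting error alone. Libraries held 22694817 to 68459527 UMIs (unique molecular identifiers, 1 per captured RNA molecule), and 1891 to 8290 cells in each passed the filter. Pairs of libraries shared 2 to 16 cell barcodes.

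Interferons are secreted alarm signals. Type I interferons bind IFNAR1 and IFNAR2, whose kinases JAK1 and TYK2 set off a signal that ends in a complex holding STAT2 and IRF9, which binds the interferon-stimulated response element (ISRE) near the start of its target genes. Type II interferon uses a receptor of its own, and several targets answer to both. CTX is an alkylating drug that damages the DNA of dividing cells and empties the BM, which then refills through a wave of myeloid production. The 37 genes were grouped by what their products do: sensors of foreign nucleic acid (Ddx58, which encodes RIG-I, Ifih1, Dhx58 and Zbp1), transcription factors (Irf7, Irf9 and Stat2), the ubiquitin-like protein Isg15 and its protease Usp18, effectors that act on RNA or nucleotides (the Ifit and Oas genes, Isg20, Rsad2, Cmpk2 and Slfn5), GTPases of the guanylate-binding and immunity-related families, and 10 others, among them the membrane protein Ifitm3.

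The letters of the ISRE core, GAAA followed by any 2 bases and a further GAAA, on either strand, were looked for in the 250 bases before the start of each gene in the RefSeq promoter table (build GRCm38.p6, the assembly also called mm10). The table held a promoter for 29 of the 37 genes, and 14 of these 29 (48.3%) had a match in at least 1 promoter, against 936 of all 27025 genes in the table (3.46%). Matches were found in 5 of 6 GTPase genes and 6 of 11 RNA effectors with a promoter, and in neither of the 2 sensors with one. The upstream bases of 5 genes are shown because they are the genes the results below turn on: 4 that were higher on day 2 in the classes where they could be compared, and Ifitm3, which went the other way in monocytes. They do not stand for a link between a match and the day 2 level, which was not tested. Oasl2, Irf7, Oasl1, Cmpk2 and Lgals3bp, also named below for their day 2 ratios, had no match in their promoter. Capitals mark every match, including overlapping ones, and each sequence reads 5′ to 3′ toward the start of its gene as RefSeq places it.
Isg15: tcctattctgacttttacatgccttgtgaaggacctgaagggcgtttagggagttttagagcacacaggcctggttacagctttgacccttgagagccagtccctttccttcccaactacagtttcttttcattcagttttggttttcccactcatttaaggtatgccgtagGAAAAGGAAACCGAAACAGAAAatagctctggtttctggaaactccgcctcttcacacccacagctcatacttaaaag
Ifit1: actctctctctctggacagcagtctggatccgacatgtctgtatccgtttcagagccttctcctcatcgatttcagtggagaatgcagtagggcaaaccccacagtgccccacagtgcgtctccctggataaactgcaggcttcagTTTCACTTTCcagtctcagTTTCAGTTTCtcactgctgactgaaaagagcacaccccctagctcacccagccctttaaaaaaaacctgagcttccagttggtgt
Rsad2: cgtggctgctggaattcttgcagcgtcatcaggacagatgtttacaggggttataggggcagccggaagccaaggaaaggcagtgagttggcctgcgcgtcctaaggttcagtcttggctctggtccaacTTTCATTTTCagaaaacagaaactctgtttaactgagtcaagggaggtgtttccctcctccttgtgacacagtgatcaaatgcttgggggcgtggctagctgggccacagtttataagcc
Gbp2: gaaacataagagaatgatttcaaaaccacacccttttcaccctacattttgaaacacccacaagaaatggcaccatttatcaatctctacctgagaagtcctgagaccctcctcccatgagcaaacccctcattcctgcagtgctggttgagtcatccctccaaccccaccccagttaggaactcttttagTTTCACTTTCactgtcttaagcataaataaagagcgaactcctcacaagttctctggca
Ifitm3: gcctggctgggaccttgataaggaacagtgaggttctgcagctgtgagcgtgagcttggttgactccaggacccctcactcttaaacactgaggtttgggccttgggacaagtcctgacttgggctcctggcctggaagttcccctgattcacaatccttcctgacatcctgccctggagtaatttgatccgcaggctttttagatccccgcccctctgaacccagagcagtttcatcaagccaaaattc
The Isg15 sequence (chr4:156200819-156201068, minus strand) held 3 overlapping matches beginning 78 bases before the start. Ifit1 (chr19:34640639-34640888, plus strand) held 2, at 104 and 85 bases before the start, Rsad2 (chr12:26456453-26456702, minus strand) held 1 at 120 bases, and Gbp2 (chr3:142620413-142620662, plus strand) held 1 at 59 bases. No match lay in the window of Ifitm3 (chr7:141010745-141010994, minus strand), which says only that these letters were not in these 250 bases.

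Many members sit side by side in the genome (GENCODE M21 annotation, GRCm38, whose gene starts can differ from those of RefSeq). Ifit2 (chr19:34550694-34576419), Ifit3 (chr19:34583531-34588731) and Ifit1 (chr19:34640871-34650009) are neighbours, as are Oas2 (chr5:120730333-120749853), Oas3 (chr5:120753098-120777661) and Oas1a (chr5:120896256-120907521), and Gbp7 (chr3:142530342-142550149), Gbp3 (chr3:142560026-142573209) and Gbp2 (chr3:142620602-142638008). Reads from near-identical copies can be split or lost in counting, so the levels of Ifit3 and Oas1a are uncertain. The copy Ifit3b was counted at 2.88, 3.69 and 2.76 CPM in naive, D2 and D7 monocytes, and Oas1g at 0.719, 7.84 and 0.689 CPM.

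Cells were placed in classes by marker genes that hold none of the 37 members. Monocytes numbered 547, 192 and 725 in naive, D2 and D7 BM, mature neutrophils 670, 1110 and 568, immature neutrophils 2492, 1881 and 5811, B lineage cells 1444, 1412 and 128, and plasmacytoid dendritic cells 141, 196 and 104. In the sorted libraries 92.1% of naive and 87.4% of CTX cells were placed with monocytes. Of the markers fixed for each class, 6 of 8 monocyte, 7 of 7 mature neutrophil, 7 of 13 immature neutrophil, 11 of 12 B lineage and 7 of 7 plasmacytoid dendritic cell markers were highest in their own class, so the line between immature neutrophils and their neighbours was the least sharp of these 5.

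On day 2 the summed level of the 37 genes, in UMIs per 1000000 UMIs of the class (CPM), was higher than in naive BM in all 5 of these classes, and on day 7 it was lower in monocytes, B lineage cells and plasmacytoid dendritic cells. On day 7 immature neutrophils were near the naive level, and mature neutrophils had a log2 ratio of -0.14 that became 0.034 when libraries were scaled by the median gene ratio. In monocytes the sum was 6703 CPM in naive, 8591 in D2 and 5176 in D7 BM. It was 2920, 4797 and 2659 CPM in mature neutrophils, and 1160, 2536 and 1175 CPM in immature neutrophils. In B lineage cells it was 771, 1956 and 411 CPM, and in plasmacytoid dendritic cells 1878, 3213 and 1424 CPM. Monocytes thus had the highest sum in every BM library, and B lineage cells the lowest of the 5. The sums of sorted monocytes were 6908 CPM (naive) and 5334 CPM (CTX), close to the naive and D7 monocytes of whole BM. The D2 over naive log2 ratio of monocytes was 0.36 (0.33 to 0.38), and it turned to -0.33 when clusters of cells replaced the marker gate.

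These sums were dominated by 2 genes. Ifitm3, which blocks viral fusion at the endosome, and Ifi27l2a together gave 77.9% of the members' UMIs in naive monocytes and 74.2% in naive immature neutrophils, but 41.3% in naive B lineage cells. Both were therefore also left out. The sum of the other 35 genes was 1482, 2678 and 1052 CPM in naive, D2 and D7 monocytes, 1243, 3102 and 1201 CPM in mature neutrophils, 299.8, 865 and 215 CPM in immature neutrophils, 453, 1237 and 299 CPM in B lineage cells, and 1111, 1944 and 956 CPM in plasmacytoid dendritic cells. On this scale mature neutrophils on day 2 had the highest level of any class and library among those 5, above D2 monocytes. The log2 ratio of D2 over naive was 1.53 (1.48 to 1.58) in immature neutrophils, 1.45 (1.38 to 1.52) in B lineage cells, 1.32 (1.24 to 1.40) in mature neutrophils, 0.85 (0.80 to 0.91) in monocytes and 0.81 (0.70 to 0.91) in plasmacytoid dendritic cells. With clusters in place of the gate the monocyte ratio was 0.20. Over the genes with at least 10 UMIs in both libraries, the median ratio of counts per UMI of the class was itself above 0 on day 2, by 0.24, 0.19, 0.28, 0.10 and 0.04 log2 units in the same order. With that shift taken out, the ratios were 1.29, 1.26, 1.04, 0.75 and 0.77.

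**Figure D1:**
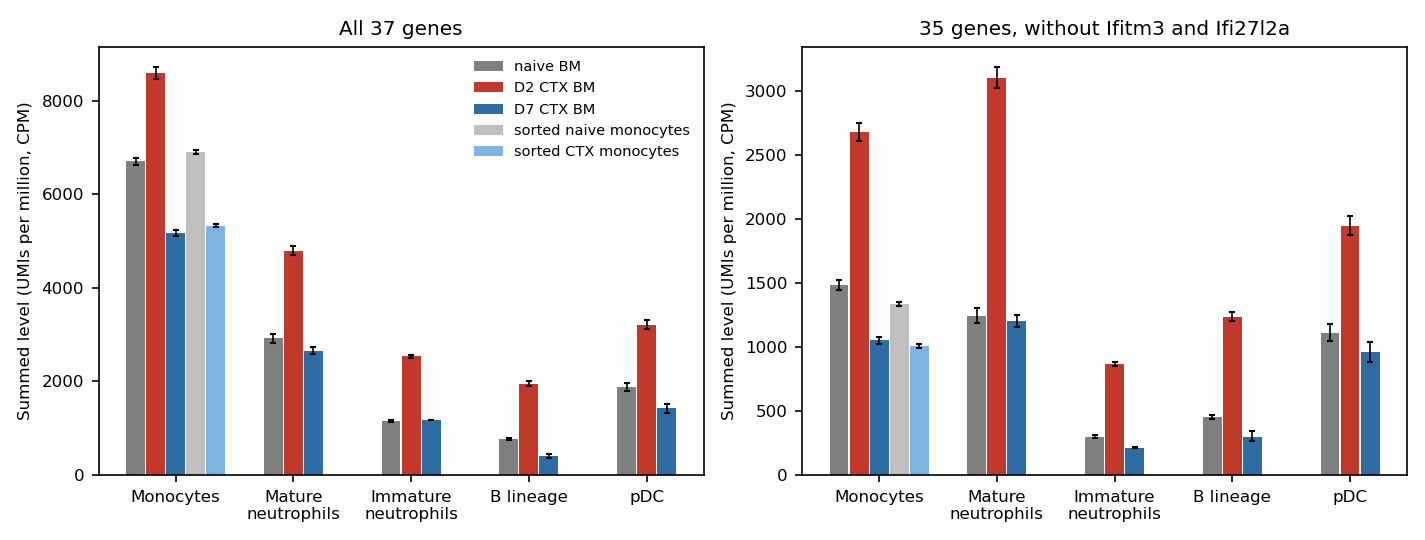
Summed level in CPM (y axis) of all 37 genes (left) and of 35 genes without Ifitm3 and Ifi27l2a (right) by cell class (x axis). Bars are single libraries and error bars are exact 95% Poisson intervals of the summed UMIs. The D2 bar is the highest of the BM bars in every class, and in monocytes the ratio of D2 to naive is larger on the right.

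In the 8 smaller classes with a value the 35-gene sum was also above naive on day 2, with log2 ratios from 0.21 (0.10 to 0.31) in erythroid cells and 0.43 (0.14 to 0.73) in macrophages to 1.06 (0.74 to 1.37) in basophils or mast cells. Gene by gene, the median ratio was 0.03 over the 4 members compared in macrophages, against 0.05 for all genes, and 0.31 over 22 members in erythroid cells, against 0.12. The 35 genes summed to 256 and 420 CPM in naive and D2 granulocyte-monocyte progenitors (log2 ratio 0.71, 0.59 to 0.84), to 869 and 1355 CPM in NK cells (0.64, 0.46 to 0.82) and to 1050 and 1444 CPM in T cells (0.46, 0.30 to 0.62). The progenitors on day 2 were 102 cells with a median of 35141 UMIs, against 9398 in naive BM. Gene by gene their median ratio was 0.74 over 18 members, but all genes compared there also had a median of 0.36. Over all cells of BM the 35 genes summed to 562 CPM in naive, 1151 in D2 and 332 in D7. Had each class kept its naive level, the D2 mix of classes would have given 540 CPM, a log2 difference of -0.06, and the remaining 1.09 lay in levels within classes. On day 7 the mix accounted for -0.35 and the levels within classes for -0.41. With all 37 genes the sums were 1506, 2512 and 1461 CPM. The D7 difference was then -0.04, with 0.08 from the mix and -0.12 within classes, and the D2 difference of 0.74 was -0.07 and 0.81.

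Which genes made up the day 2 difference was asked class by class, over genes with at least 50 UMIs in the compared pair. The minimum was on the sum of the pair, so a gene could pass it mainly through the library where it was high. A gene was counted as higher or lower where its ratio of CPM + 1 was at least 1 log2 unit. In mature neutrophils 31 of the 37 genes could be compared, and 21 of them were higher by that limit and none lower, where 8.48% of all 4645 genes compared were higher. The median log2 ratio of the members was 1.21, against 0.36 for all genes compared (a set with another minimum count than the median shift given above). In immature neutrophils 25 of 34 were higher (5.37% of 9332 genes), with a median of 1.31 against 0.21. In B lineage cells 20 of 27 were higher (7.59% of 9277 genes), with a median of 1.40 against 0.16, and in monocytes 12 of 37 were (4.85% of 8192 genes), with a median of 0.81 against 0.07. In plasmacytoid dendritic cells 6 of 17 were higher (2.87% of 5914 genes). In monocytes 35 of the 37 were higher by any amount, as were 56% of all genes. No member was lower by 1 log2 unit in any of these 5 classes, where 1.66% of all genes were in monocytes, 0.947% in mature and 1.05% in immature neutrophils, 6.7% in B lineage cells and 0.981% in plasmacytoid dendritic cells.

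Rsad2, whose product viperin makes a chain-terminating nucleotide, stood at 89.4 CPM in naive, 345 in D2 and 60.5 in D7 mature neutrophils. It was the RNA effector with the most UMIs there on day 2, while monocytes had 11.7, 17.98 and 11.4 CPM. Ifit1, which binds RNA without the host cap mark, was at 22.2, 108 and 24.8 CPM in mature neutrophils, a D2 over naive log2 ratio of 2.23 (1.73 to 2.89). Both genes were highest on day 2 and near or below the naive level on day 7. The Oas enzymes make the second messenger that switches on RNase L. Oas3 was at 87.2, 262 and 74.0 CPM in mature neutrophils, and Oas2 at 17.0, 78.9 and 15.1 CPM. Oasl2, a relative of these enzymes, had the largest ratio of the class at 2.54 (1.52 to 4.52), from 3.69 to 26.3 CPM. That ratio rested on 5 naive and 51 D2 UMIs, so the gene passed the minimum count through D2 alone. Cmpk2, a mitochondrial nucleotide kinase whose gene neighbours Rsad2, was at 38.4, 142 and 38.9 CPM, and Slfn5 at 47.3, 192 and 52.4 CPM. Ifit2 was at 6.65, 21.7 and 2.16 CPM. Among the other members Parp14, an ADP-ribosyltransferase, was at 22.9, 71.2 and 29.1 CPM and the GTPase Igtp at 15.5, 50.6 and 22.1 CPM, so both also had their highest level on day 2.

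The same effectors separated naive and D2 immature neutrophils at lower levels. Oas3 was at 25.5, 95.5 and 16.6 CPM in naive, D2 and D7 cells, and Rsad2 at 7.41, 32.0 and 2.77 CPM. Ifit1 was at 2.98, 19.6 and 1.86 CPM, and Oas1a at 1.98, 16.4 and 2.73 CPM. The levels of Oasl1 were 4.17, 19.9 and 3.603 CPM and those of Oas2 6.68, 26.1 and 3.93 CPM. Each of these 6 genes had its highest level on day 2, with D2 over naive log2 ratios between 1.82 and 2.54. Slfn5, Rtp4 and Trim30a followed with ratios of 1.79, 1.76 and 1.69, and Cmpk2 with 1.58. Ifi27l2a, a small mitochondrial membrane protein, had the largest ratio of this class at 2.57 (2.50 to 2.67), from 88.4 to 529 CPM, yet in mature neutrophils it stood at 709 and 754 CPM. The ratio of mature neutrophils was 0.09 (-0.03 to 0.21), so the 2 stages lay further apart in this gene in naive BM than on day 2, a difference that could not be tested. Isg20, an RNA exonuclease, had ratios of 0.19 and 0.41 in the 2 stages, with 9.86 and 11.3 CPM in naive and D2 immature and 34.7 and 46.4 CPM in mature neutrophils, and both intervals included 0.

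In monocytes the largest day 2 ratio was that of Oas1a at 2.39 (1.99 to 3.05), from 10.1 CPM in naive to 57.2 in D2 and 5.86 in D7 BM. Sorted naive monocytes held Oas1a at 49.0 CPM, so its naive level differed between preparations, and its counts are uncertain as said above. Lgals3bp, a secreted glycoprotein, was at 26.8 CPM in naive, 81.1 in D2 and 11.2 in D7. Oas2 was at 10.5, 29.96 and 6.03 CPM, Oas3 at 28.5, 62.7 and 11.5 CPM, and Oasl2 at 16.3, 36.9 and 8.10 CPM. These 5 genes shared the order D2 over naive over D7. Ifi44, which had 120, 298 and 64.8 CPM in naive, D2 and D7 monocytes, was counted at no more than 1.55 CPM in any library of mature neutrophils. Ifi204, a DNA sensor at 125, 190 and 94.9 CPM in monocytes, was counted at no more than 3.095 CPM there. The abundant Slfn5 was at 178, 310 and 118 CPM in monocytes and Trim30a, a ubiquitin ligase, at 146, 264 and 106 CPM. The 2 lineages thus differed in which members they held, and Rtp4, a chaperone of receptor proteins, was higher in mature neutrophils (163, 264 and 216 CPM) than in monocytes (36.2, 83.9 and 13.1 CPM) in every BM library.

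**Figure D2:**
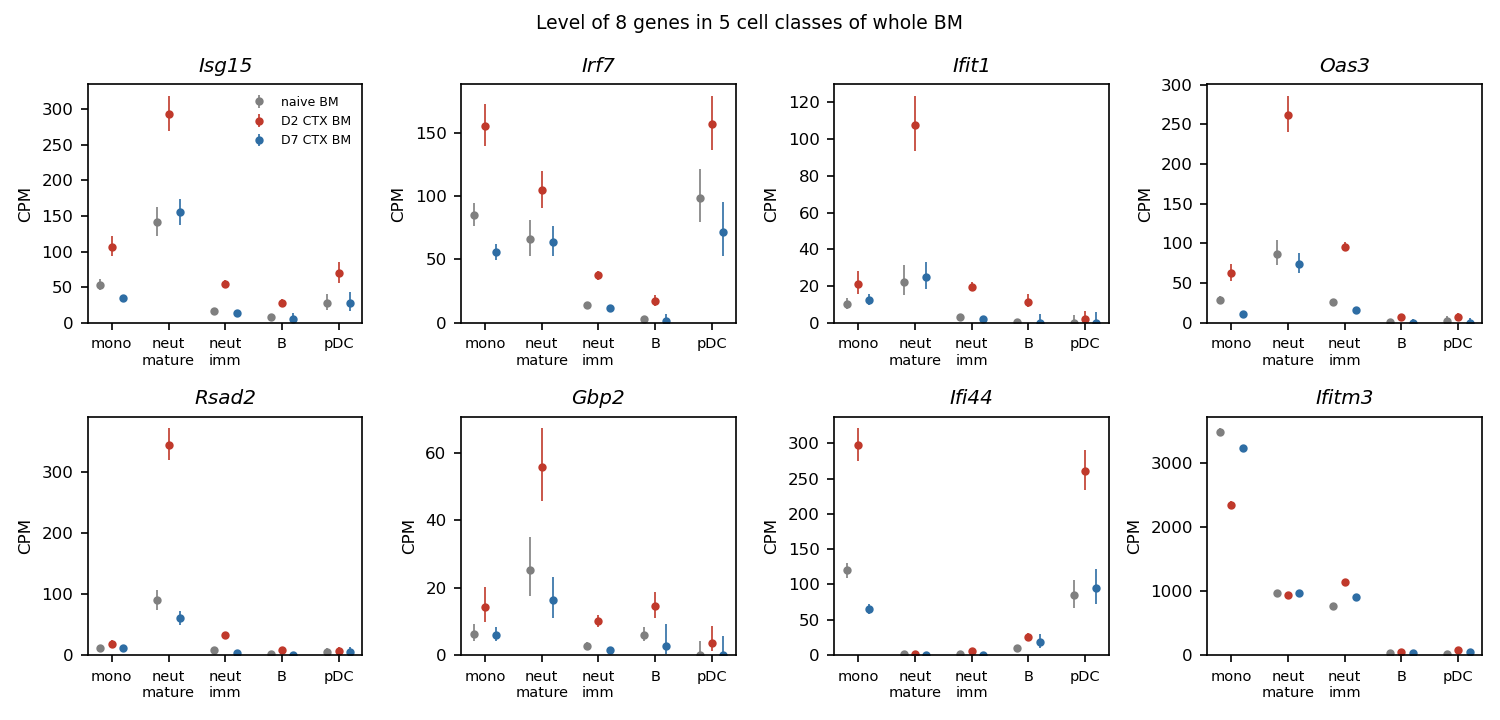
Level in CPM (y axis of each panel, each with its own scale) of 8 genes in 5 cell classes (x axis) of naive, D2 and D7 BM. Points are single libraries with exact 95% Poisson intervals. Rsad2, Ifit1 and Oas3 are highest in D2 mature neutrophils, Ifi44 in D2 monocytes and plasmacytoid dendritic cells, and Ifitm3 is the one panel where D2 monocytes lie below naive ones.

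RIG-I (Ddx58) was at 41.1 CPM in naive, 142 in D2 and 10.2 in D7 B lineage cells, and its D2 level was the highest of a sensor in these 5 classes. In mature neutrophils it was at 42.9, 111 and 32.9 CPM and in monocytes at 21.6, 47.9 and 12.9 CPM. Dhx58 in mature neutrophils was at 23.6, 21.2 and 19.4 CPM. Zbp1, a sensor of nucleic acid in the Z form, was at 7.05 and 24.4 CPM in naive and D2 B lineage cells. Irf7, the factor that amplifies the interferon response, was at 85.3, 155 and 55.7 CPM in monocytes and at 98.9, 157 and 71.9 CPM in plasmacytoid dendritic cells, which are known for holding Irf7 at rest. In B lineage cells Irf7 had the largest ratio of that class, 2.31 (1.89 to 3.58), from 2.68 to 17.3 CPM. Next in those cells came Cmpk2, from 5.37 to 27.0 CPM, Oasl1, from 4.53 to 23.1 CPM, Slfn5, from 5.54 to 27.0 CPM, and Igtp, from 7.89 to 30.2 CPM. Trim30a, the B lineage member with the most UMIs after Ifi27l2a, was at 65.1 CPM in naive and 209 in D2. Stat2 was at 123, 135 and 116 CPM in plasmacytoid dendritic cells, and Irf9 at 76.9, 90.5 and 65.8 CPM there, and both day 2 intervals included 0.

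Isg15, a ubiquitin-like modifier that is also secreted, was at 141, 294 and 155 CPM in mature neutrophils of naive, D2 and D7 BM. It was at 53.5, 107 and 34.1 CPM in monocytes, at 16.8, 55.1 and 13.03 CPM in immature neutrophils and at 27.5, 69.7 and 27.5 CPM in plasmacytoid dendritic cells. Each of these classes had its highest Isg15 level on day 2. Usp18, which removes Isg15 from proteins and dampens the receptor, was counted at 20.9, 28.1 and 13.3 CPM in monocytes and at 9.61, 23.7 and 7.02 CPM in mature neutrophils. In plasmacytoid dendritic cells Usp18 was at 13.2, 37.1 and 38.2 CPM in naive, D2 and D7. The D7 level rested on 25 UMIs, against 12 in naive, too few to be compared.

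The GTPases are best known as targets of type II interferon. Gbp7 was at 32.5, 83.6 and 25.9 CPM in mature neutrophils, at 18.7, 49.8 and 16.5 CPM in monocytes and at 16.3, 53.0 and 24.2 CPM in the B lineage, and its D2 over naive log2 ratio lay between 1.29 and 1.64 in these 3 classes and in immature neutrophils. Gbp2 was at 25.1, 55.7 and 16.2 CPM in mature neutrophils and at 6.23, 14.3 and 6.03 CPM in monocytes. Ifi47 and Irgm1 differed less, with ratios of 0.69 (0.38 to 1.02) and 0.59 (0.22 to 0.99) in monocytes. All 6 GTPases were higher on day 2 in monocytes, and Gbp2 and Gbp7 passed 1 log2 unit.

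**Figure D3:**
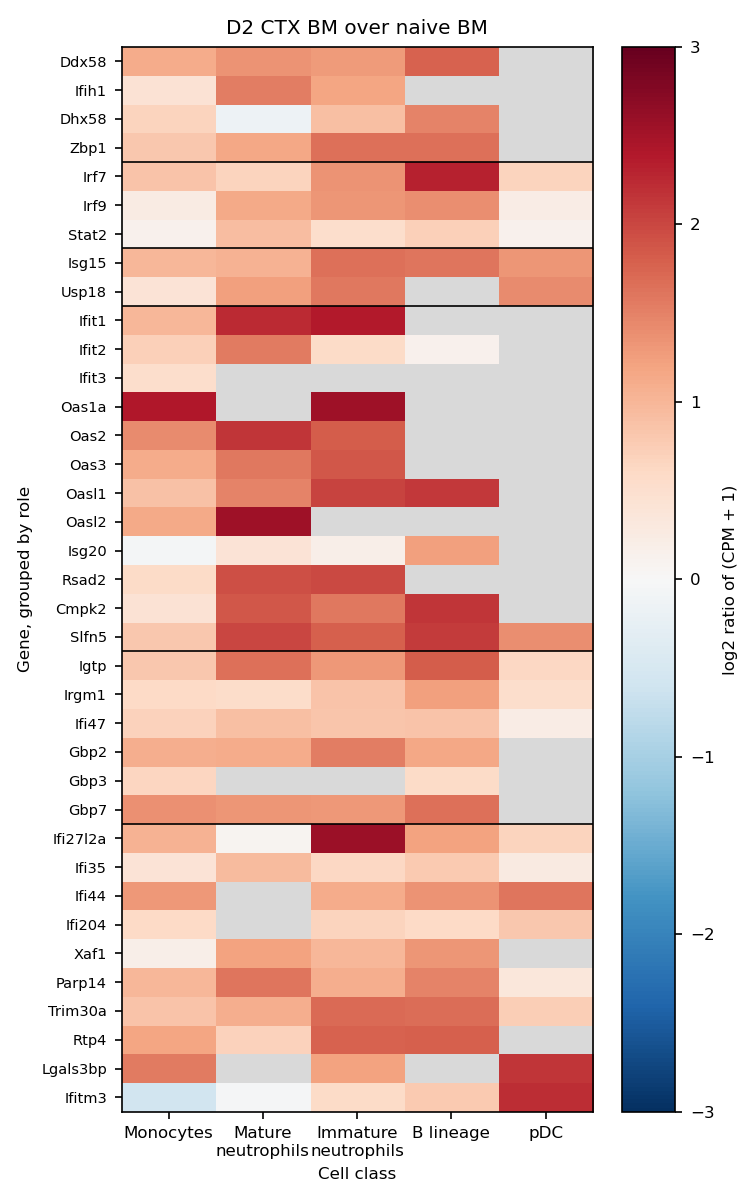
log2 ratio of CPM + 1 of D2 over naive BM (colour) for the 37 genes (rows, grouped by role with lines between groups) in 5 cell classes (columns). Grey cells had fewer than 50 UMIs over both libraries. Coloured cells are red with few exceptions, and the deepest blue is Ifitm3 in monocytes at -0.57.

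Ifitm3 stood apart. It was at 3485 CPM in naive, 2342 in D2 and 3232 in D7 monocytes, a D2 over naive log2 ratio of -0.57 (-0.62 to -0.53), when 35 of the 37 genes were higher in the same cells. It was at 968, 941 and 971 CPM in mature neutrophils, a ratio of -0.04 (-0.14 to 0.06). In immature neutrophils it was at 772, 1142 and 900 CPM, and in plasmacytoid dendritic cells at 17.6, 84.6 and 42.8 CPM, so both had their highest level on day 2. Ifi27l2a, the other abundant member, was at 1736, 3571 and 892 CPM in monocytes. The related Ifitm1, which was no member, was at 16.5 CPM in naive, 134 in D2 and 37.8 in D7 immature neutrophils, and at 301, 1077 and 357 CPM in mature ones.

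Isg20 differed from the rest over all BM cells. It was at 69.9 CPM in naive, 17.2 in D2 and 8.47 in D7 BM as a whole, the only member lower by 1 log2 unit on day 2 over all cells, where 2.98% of genes were. Its level was highest in erythroid cells, at 348 CPM in naive, 121 in D2 and 280 in D7, and these numbered 433, 39 and 21 cells. Rsad2 in the same erythroid cells was at 18.9, 213 and 24.7 CPM. On day 2 Rsad2 was at 345 CPM in mature neutrophils, 115 in macrophages and 32.0 in immature neutrophils. It was at 7.61 CPM in B lineage cells and 2.10 CPM in granulocyte-monocyte progenitors. The D2 erythroid level rested on 208 UMIs in 22 of 39 cells, with at most 37 in a cell. The part of RNA from other cells in the erythroid level was not tested.

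Since the stages within a class shifted after CTX, levels were also compared stage by stage, a split added after the data were seen. B lineage cells with Ms4a1 (CD20, a marker of later B cells) made up 32.8% of the class in naive, 71.5% in D2 and 8.59% in D7 BM. The 35 genes summed to 588 and 1279 CPM in naive and D2 cells with Ms4a1 (log2 ratio 1.12), and to 598 and 1179 CPM in those without Ms4a1 and not cycling (0.98). In immature neutrophils that were neither cycling nor carried precursor genes they summed to 426, 1144 and 295 CPM in naive, D2 and D7. In cycling or precursor cells they summed to 257, 656 and 203 CPM. The day 2 difference was thus present within each stage measured.

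Day 7 was read most fully in monocytes, where all 37 genes could be compared in BM and in sorted cells. Of the 37 genes 36 were lower than in naive monocytes by any amount, as were 61.1% of all 8835 genes compared, and 3 were lower by at least 1 log2 unit (0.509% of genes). The median ratio of the members was -0.47 against -0.07 for all genes. Rtp4 had the lowest ratio at -1.40 (-1.88 to -1.06), followed by Oas3, at 28.5 CPM in naive and 11.5 in D7, with -1.23 (-1.76 to -0.86), and by Lgals3bp with -1.19 (-1.73 to -0.81). The single member above its naive level was Ifit1, at 10.1 and 12.4 CPM, with an interval of -0.27 to 0.89. Of the abundant members, Ifi27l2a had a ratio of -0.96 (-1.01 to -0.91), Slfn5 of -0.60 (-0.75 to -0.45) and Ifitm3 of -0.11 (-0.14 to -0.08).

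The sorted monocytes gave a second pair of libraries from other cells. There too 36 of the 37 genes were lower after CTX, where 38% of all 10431 genes were, and 3 were lower by at least 1 log2 unit (0.824% of genes): Rtp4, from 29.0 to 12.9 CPM, Oas3, from 22.7 to 10.7 CPM, and Oasl2, from 13.1 to 5.96 CPM. The median ratio was -0.41, against 0.05 for all genes. Rsad2 stood at 8.65 and 3.97 CPM, Ifit3 at 14.0 and 6.91 CPM, and Irf7 at 110 and 69.9 CPM in sorted naive and CTX monocytes. Stat2, at 26.7 and 27.3 CPM, Irf9, at 58.7 and 57.7 CPM, and Cmpk2, at 30.1 and 29.7 CPM, had intervals that included 0.

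**Figure D4:**
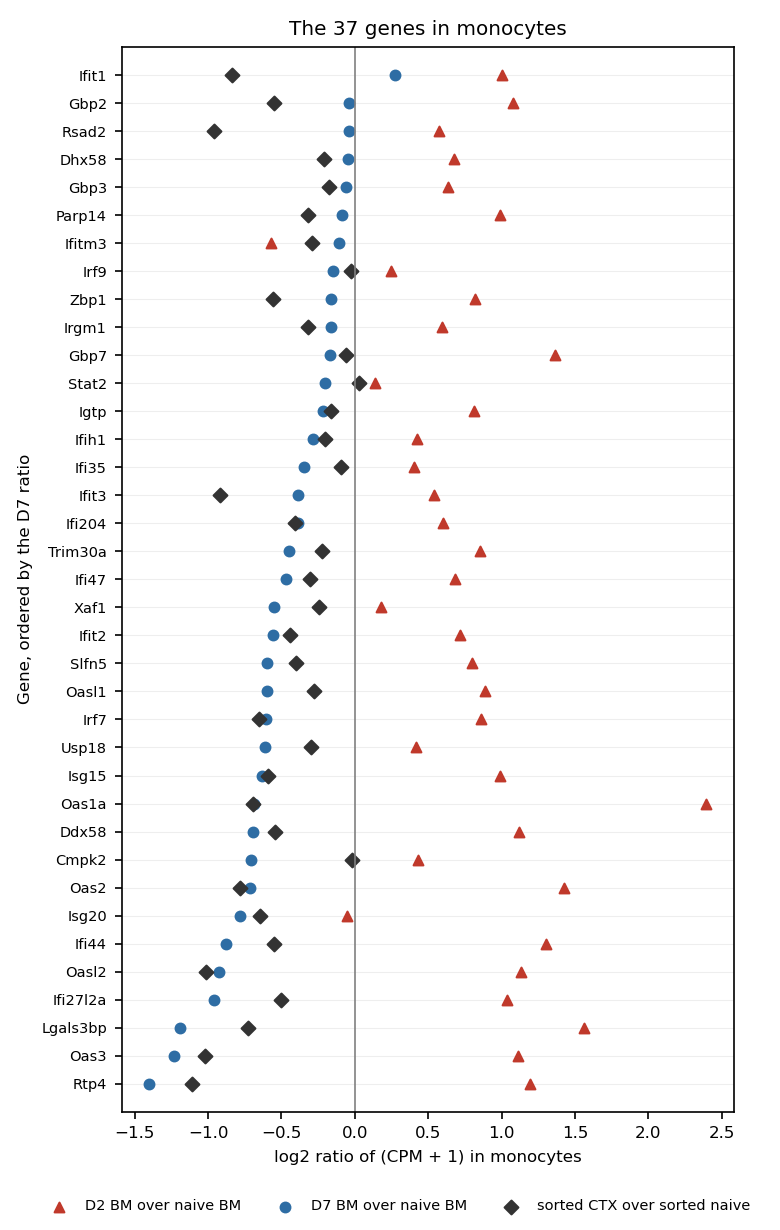
log2 ratio of CPM + 1 in monocytes (x axis) for each of the 37 genes (y axis, ordered by the D7 ratio) for D2 over naive BM, D7 over naive BM and sorted CTX over sorted naive monocytes. Circles and diamonds lie left of 0 for 36 genes each, and triangles lie right of 0 for 35. The 2 BM ratios share the naive library.

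Levels of the 2 naive monocyte preparations can be set side by side. Isg15 was at 53.5 CPM in whole BM and 43.4 in sorted cells, and Irf7 at 85.3 and 110 CPM, whereas Oas1a was at 10.1 and 49.0 CPM. Monocytes were also split by stage. In those that were not cycling the 35 genes summed to 2415 CPM in naive, 4560 in D2 and 1441 in D7 BM, and to 1986 and 1462 CPM in sorted naive and CTX cells. In cycling monocytes they summed to 669, 1705 and 649 CPM, and to 786 and 696 CPM in the sorted libraries. The D7 over naive log2 ratio was -0.75 (-0.81 to -0.69) in cells that were not cycling and -0.04 (-0.14 to 0.06) in cycling ones, and in sorted cells -0.44 (-0.47 to -0.41) and -0.18 (-0.22 to -0.13). Cells that neither cycled nor carried precursor genes had the highest levels, 2819, 4893 and 1546 CPM in naive, D2 and D7 BM. Monocytes with precursor genes had 1083, 1892 and 947 CPM. Their ratio was -0.19 (-0.26 to -0.13) on day 7 and -0.21 (-0.24 to -0.17) in sorted cells. They were 328 of 547 naive and 540 of 725 D7 monocytes, so this low-level stage was a larger part of the class on day 7. Its part in the class difference was not tested.

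In mature neutrophils on day 7, 11 genes were higher and 12 lower of the 23 compared, where 61.6% of all 4143 genes were lower. The ratio of the 35-gene sum was -0.05 (-0.14 to 0.04), and 0.12 once the shift of the median gene was taken out, so no direction is given. Ifi35 was at 11.8 and 32.4 CPM in naive and D7 mature neutrophils, while Irgm1 was at 27.3 and 11.3 CPM. In immature neutrophils 31 of 34 were lower by any amount, as were 78.5% of all 9984 genes compared, and 2 were lower by 1 log2 unit (2.07% of genes). The 35-gene ratio there was -0.48 (-0.53 to -0.43), and -0.23 with the shift of the median gene (-0.26) taken out. Only 128 B lineage cells remained on day 7, with 323 UMIs of the members in all. Of 18 genes compared in them, 4 were lower by 1 log2 unit (4.79% of genes), namely Ddx58, Ifi27l2a, Stat2 and Irf9. Their 35-gene ratio was -0.60 (-0.80 to -0.40). Within cells without Ms4a1 and not cycling it was -0.02 (-0.33 to 0.27), and within cycling cells -0.57 (-0.86 to -0.29). Plasmacytoid dendritic cells had a ratio of -0.22 (-0.36 to -0.07).

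The number of cells carrying several of these genes at once was counted after each cell was thinned to 1000 UMIs in BM and 2000 in sorted monocytes. Cells with at least 3 of 20 core genes made up 9.26% (7.03 to 11.9) of naive, 24.5% (21.5 to 27.8) of D2 and 6.99% (5.02 to 9.43) of D7 mature neutrophils. In monocytes they made up 7.16% (5.14 to 9.65), 21.9% (16.2 to 28.4) and 4.01% (2.70 to 5.70). Before thinning the shares of monocytes were 42.0%, 86.5% and 28.6%. Immature neutrophils had 0.981%, 5.83% and 0.483%, but 0.0803%, 2.02% and 0.120% at 500 UMIs. The order of naive and D7 turned there, where both of these shares rested on few cells. B lineage cells had 0.348% (5 cells) and 1.93% in naive and D2 BM and 0 of 127 cells on day 7. That count of 0 allows a share of up to 2.36%, taken as 3 counts of the total, or 2.86% by the Clopper-Pearson interval. Such cells were 14.3% (12.6 to 16.03) of sorted naive and 9.38% (8.197 to 10.7) of sorted CTX monocytes. Among granulocyte-monocyte progenitors 1 of 290 naive and 0 of 101 D2 cells counted, and that 0 allows up to 3.59% by the Clopper-Pearson interval. Before thinning their shares were 4.23% in naive BM and 48.0% in the deeper D2 cells. Their summed level was itself higher on day 2, so they give no background for the shares of other classes. Of mature neutrophils 87 naive, 368 D2 and 10 D7 cells were too shallow to be thinned and were left out. Thinned to 500 UMIs with none left out, the shares of mature neutrophils were 2.84%, 10.9% and 4.58%, so the order of naive and D7 turned. The shares of plasmacytoid dendritic cells were 1.42%, 2.55% and 0.962% and rested on 5 cells or fewer per library, and at 500 UMIs the D2 share was 0.510%, below the naive share of 1.42%.

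**Figure D5:**
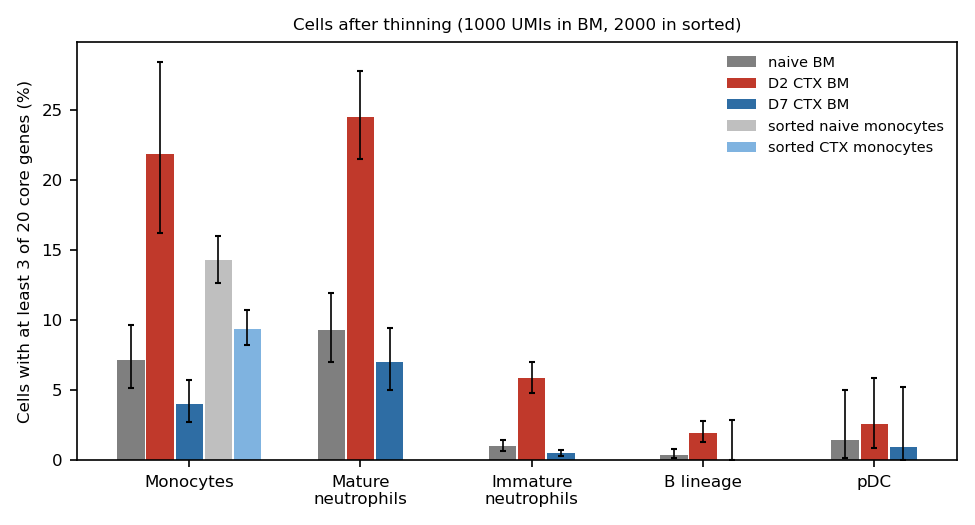
Percent of cells with UMIs of at least 3 of 20 core genes (y axis) by cell class (x axis) after thinning. Bars are single libraries and error bars are exact 95% Clopper-Pearson intervals. D2 bars stand above naive bars without overlap of the intervals in monocytes, both neutrophil classes and B lineage cells, and the intervals of plasmacytoid dendritic cells overlap.

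Cells with at least 3 other core genes were set beside cells with no other core gene. In sorted naive monocytes Irf7 was detected in 48.1% of the first and 8.15% of the second kind, Isg15 in 25.8% and 2.26%, and Ifit1 in 10.8% and 0.256%. In D2 mature neutrophils Rsad2 was detected in 46.5% and 6.47%. Ifitm3 was detected in 243 of 243 cells of the first kind and in 97.4% of the second in sorted naive monocytes. Both are near the ceiling, so its detection could hardly differ between them. The median UMI count of the 35 genes in a thinned mature neutrophil was 1 in naive, 2 in D2 and 1 in D7, and in a thinned monocyte 1, 3 and 1, so the day 2 difference was seen in the middle of the distribution as well as in its upper end.

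Of 50 further genes of the pathway, 49 were found in the tables. On day 2 they were higher by at least 1 log2 unit in 12 of 34 compared in B lineage cells, 8 of 34 in plasmacytoid dendritic cells, 7 of 35 in immature neutrophils, 5 of 26 in mature neutrophils and 4 of 35 in monocytes, and none was lower by as much. The percentages of all genes given for the members apply here too. Ifitm1 was higher by that limit in all 5 classes. The receptor gene Ifnar1 was at 39.4 and 86.1 CPM in B lineage cells. Ifnar2 was lower on day 2 in monocytes, at 235 and 137 CPM, with a ratio of -0.77 (-0.97 to -0.59). Also higher in D2 monocytes were Cxcl10, a chemokine, at 6.23 and 27.2 CPM, Mx1, an antiviral GTPase, at 21.6 and 53.9 CPM, and the feedback inhibitor Socs3, at 3.596 and 17.1 CPM. The ligands were hardly seen. No UMI of Ifnb1, Ifna1, Ifna2, Ifna4 or Ifnl2 was counted in kept cells of the BM libraries, and 1 UMI of Ifnb1 was counted in sorted CTX monocytes. This says only what was captured, and a count of 0 limits only the cells with a captured UMI. Ifng was found in 34 of 7104 naive, 47 of 6126 D2 and 13 of 8290 D7 BM cells and in none of the sorted monocytes.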

How the data were processed

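UMI counts were deposited as 1 gene by cell matrix per library, made by the authors with Cell Ranger 3.1 on mm10 (Seurat 5.0 is also named in the submitters' processing notes), and they were used as deposited. The 37 members, their roles and the pathway list were chosen with earlier results of these data known. Cells with 200 genes or more and mitochondrial UMIs under 20% were kept, of which the median held 3033.5 to 10299 UMIs. A marker score placed each cell in 1 of 14 classes, and the gate and the split by stage were set after the data were seen. UMIs were summed per class and library, classes under 20 cells were left out, and log2 ratios were taken of CPM + 1. Intervals are exact: Poisson for levels, conditional on the summed counts for ratios, and Clopper-Pearson for shares. Ratio intervals use the counts with no pseudocount, so for genes of a few CPM the ratio lies toward 0 within or beyond its interval. No test was run, since each condition was 1 library. Values are given for members at least 1 log2 unit apart (at most 10 each way per comparison) and the 5 with the most UMIs, and others were named after their values were seen. Stages came from summed UMIs of 7 cycling genes, of 6 precursor genes and of Ms4a1. Core genes were 20 members fixed for counting cells. Doublets were kept, and the cells Scrublet called (29 to 550 per library) were removed as an alternative. Other alternatives changed the filter, gate, clusters, scaling, pseudocount, minimum count, fold limit and thinning depth. Python 3.11.15, numpy 2.4.6, scipy 1.17.1, pandas 2.3.3, scanpy 1.11.5 and matplotlib 3.10.9 were used, and the computation was tested on simulated data.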

Additional observations from a re-analysis of the deposited data

Results flagged for a closer look

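Ifitm3 drew attention because its day 2 ratio pointed one way in monocytes and the other way in 3 of the other main classes. The log2 ratio of D2 over naive BM was -0.57 in monocytes, 0.56 in immature neutrophils, 0.78 in B lineage cells and 2.20 in plasmacytoid dendritic cells. The last ratio (1.51 to 3.12) rested on 16 naive and 114 D2 UMIs, so it passed the minimum count through D2 alone. With 1 library per condition the difference between classes was not tested.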

How the results depend on the processing

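No paired analysis was possible because each condition was 1 library, and no replicate could be left out. The log2 ratios of the summed level are given for D2 monocytes, mature neutrophils, immature neutrophils and B lineage cells, D7 monocytes and sorted monocytes, whose values were 0.36, 0.72, 1.13, 1.34, -0.37 and -0.37. Without Ifitm3 and Ifi27l2a they were 0.85, 1.32, 1.53, 1.45, -0.49 and -0.41, and without the most abundant member 0.96, 0.98, 1.84, 1.42, -0.73 and -0.46. Scaling by the median gene ratio gave 0.26, 0.43, 0.89, 1.15, -0.30 and -0.42. Clusters in place of the gate gave -0.33, 0.63, 1.06, 1.15, -0.57 and -0.40. The D2 monocyte value turned negative there, where the monocyte clusters held 88 cells that the gate had placed elsewhere, with a summed level of 1764 CPM against 9213 CPM in the 177 cells shared with the gate. The 35-gene ratio under clusters was 0.20. The mean of the cells' own CPM gave 0.40 in D2 monocytes, 0.99 in immature neutrophils, 1.08 in B lineage cells and -0.46 in D7 monocytes. Leaving the 20 most abundant genes out of the total gave 0.47 in D2 mature and 0.90 in immature neutrophils, 1.40 in B lineage cells and -0.34 in D7 monocytes. The stricter gate gave 0.83 in mature and 1.07 in immature neutrophils, and in D2 monocytes the stricter cell filter gave 0.40 and doublet removal 0.32. In D7 mature neutrophils the 37-gene ratio of -0.14 became 0.034 under the median scaling.

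The number of members past the fold limit depended on the minimum count. With 200 UMIs in place of 50 it was 5 in D2 monocytes (12), 11 in mature neutrophils (21), 8 in B lineage cells (20) and 1 in D7 monocytes (3). With a limit of 0.58 log2 units it was 26 in D2, 16 in D7 and 12 in sorted monocytes (3), and with a pseudocount of 0.1 CPM it was 5 in the last. A higher minimum count also left fewer members to compare. Shares of all genes at these other settings are not given, so these counts show only their dependence on the settings. Log2 ratios of the share of cells with at least 3 core genes were 1.94 after thinning to 500 UMIs and 1.91 with at least 4 genes in D2 mature neutrophils (1.40), and 4.65 after thinning to 500 UMIs in D2 immature neutrophils (2.57). On day 7 the share ratio of immature neutrophils was 0.59 at 500 UMIs, where it was -1.02 at 1000. Both immature neutrophil ratios at 500 UMIs rested on a naive share of few cells. Values in brackets are those of the report.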
